A study of Mus musculus with 9 samples.

Results

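Collagen chain genes were described over 3 mouse stromal cell lines. The group comprised every probe set whose platform annotation gave exactly 1 gene symbol made of Col, a type number, the letter a and a chain number. This rule, which used no measured value, found 71 probe sets of 40 genes among 36701 probe sets that are not controls and 15964 named genes. By type number, 10 of the 40 genes encode fibrillar chains (types I, II, III, V, XI and XXVII), 6 encode type IV chains of basement membranes and 24 encode chains of other types. Each line (OP9, AGM-s3-A7 and AGM-s3-A9) was hybridised once to each array of the Affymetrix MG-U74 set, of which there are 3: MG-U74A, MG-U74B and also MG-U74C. AGM-s3-A9 (supportive of hematopoiesis) and AGM-s3-A7 (not supportive) come from the aorta-gonad-mesonephros region of the mouse embryo. OP9 comes from the calvaria of newborn mice and is supportive. The labels name no treatment, passage or culture density, and a cell line stands for 1 established culture rather than for the tissue it came from.

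Collagens are trimers of chains that share a glycine-rich repeat and wind into a triple helix. Fibrillar collagens form the tensile fibers of connective tissue, with type V and XI chains incorporated into fibers of types I, III or II. Type IV forms the sheet-like network of basement membranes, and types XV and XVIII sit in the zone next to it. Stromal cells are known as major producers of the matrix in which hematopoietic cells reside.

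Values are normalized intensities, which are linear and comparable between lines on 1 array type but not between probe sets or array types. A gene was represented by its brightest probe set over the 3 lines. It was called detected in a line when its intensity exceeded a detection level of 49.0 on MG-U74A, 52.8 on MG-U74B or 61.5 on MG-U74C, set from the median of the array type and from probe sets with no target. Where a line did not exceed that level, the fold against it is a lower bound, written "at least". No line has a second array of any type, so there is no replicate error and no p-value. The robust SD of the log2 ratio between probe sets of the same gene on 1 array type was 0.32 for OP9 against AGM-s3-A7, 0.33 between the supportive lines and 0.30 between the AGM lines. It covers disagreement between probe sets and not the spread between cultures. All differences below are thus differences between these arrays.

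Of the 40 genes, 25 (62.5%) were detected in at least 1 line, beside 56.4% of all named genes, and 17 were detected in all 3 lines. Between the AGM lines, 4 of 24 measurable collagen genes reached a 2-fold higher value in AGM-s3-A9 (16.7%, beside 3.08% of all measurable genes). In the opposite direction 0 of 24 reached 2-fold, beside 2.28% of all genes. The 4 were Col4a1, Col4a2, Col9a1 and Col15a1. In OP9, 4 of 24 were at least 2-fold higher than in the non-supportive line (16.7%, beside 5.14%), namely Col4a1, Col4a2, Col8a1 and Col15a1. Another 5 were at least 2-fold lower in OP9 (20.8%, beside 5.98%), namely Col3a1, Col5a1, Col7a1, Col11a1 and Col16a1. A gene detected in a single line of a pair enters these counts through the line in which it is high. Both comparisons with the non-supportive line rest on its same 3 arrays, so their values are given side by side only.

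**Figure D1:**
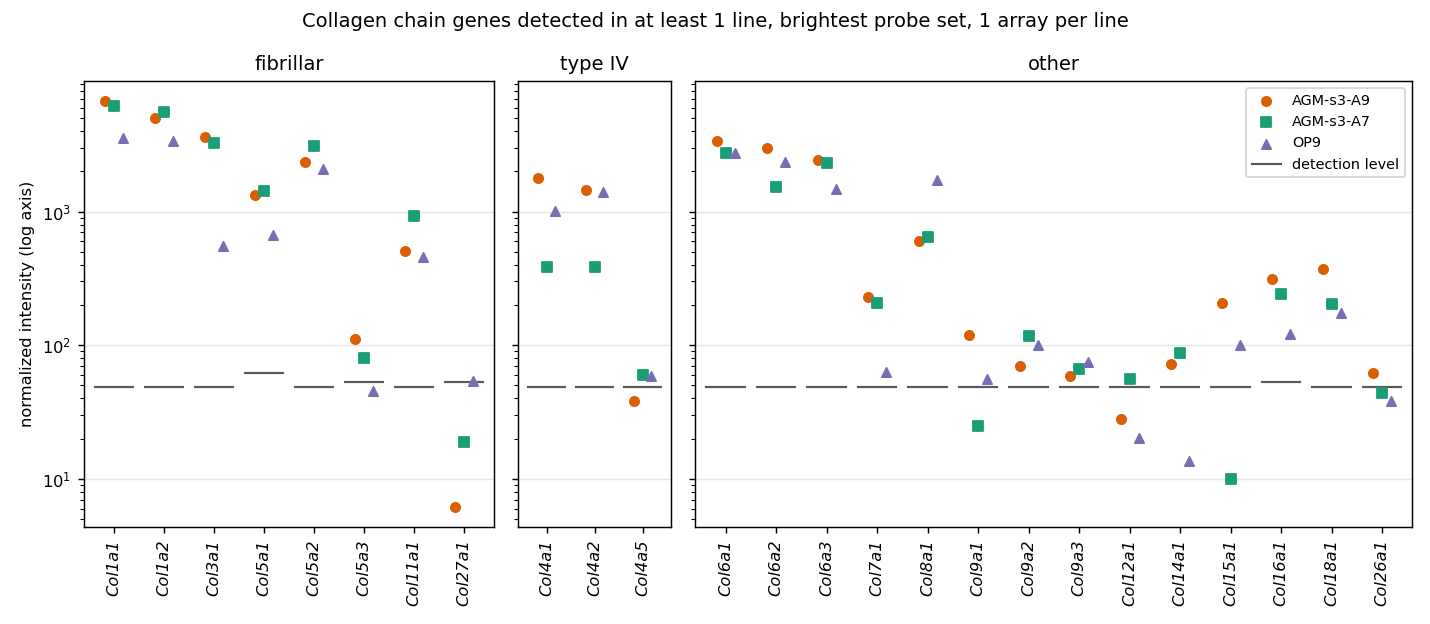
Normalized intensity (log axis) of the 25 collagen genes detected in at least 1 line, by class. Each symbol is 1 array of AGM-s3-A9 (circle), AGM-s3-A7 (square) or OP9 (triangle), and each short bar is the detection level of the probe set's array type. Col4a1 and Col4a2 are lowest in AGM-s3-A7, Col3a1 and Col7a1 are lowest in OP9, and Col8a1 is highest in OP9.

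The chains of the widespread type IV trimer were lowest in AGM-s3-A7 and higher in both supportive lines. Col4a1, which encodes its alpha 1 chain, was at 1779.8 in AGM-s3-A9, 385 in the AGM-s3-A7 line and 1010.4 in OP9. Col4a2, encoding the alpha 2 partner, was at 1448 in AGM-s3-A9, 385 in the AGM-s3-A7 line and 1400.2 in OP9. AGM-s3-A7 was thus the low line for both chains, and the supportive lines lay close to each other for Col4a2. Relative to the non-supportive line, Col4a1 was higher by 4.62-fold in AGM-s3-A9 and by 2.62-fold in OP9. For Col4a2 the differences were 3.76-fold and 3.64-fold. A second Col4a2 probe set, on MG-U74C and with a name suffix for possible cross-hybridisation, read 375, 165 and 448 in the same order, or 2.27-fold and 2.71-fold higher. It gave the same direction on separate arrays of the same lines. Both chains kept their place past 2-fold in AGM-s3-A9 and in OP9 under each of the 9 alternatives tried. Most of these could not change the values. Col4a1 has no second probe set and lies far above the detection level, so only other scaling and subtraction of the chromosome median could alter it. For Col4a2 the median over probe sets could as well. The size for AGM-s3-A9 rose to a log2 ratio of 2.88 for Col4a1 and 2.59 for Col4a2 in the intensities as deposited, against 2.21 and 1.91 after normalization. As deposited, the whole MG-U74A array had a median of 64.5 in AGM-s3-A9 and 42.7 in AGM-s3-A7.

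Between the supportive lines, Col4a1 was 1.76-fold higher in AGM-s3-A9 while Col4a2 was within 1.03-fold. The log2 ratios of the partner chains differed by 0.77 in that comparison, by 0.30 between the AGM lines and by -0.47 for OP9 against AGM-s3-A7. Of the other type IV genes, Col4a5 lay close to the detection level, at 38.4 in AGM-s3-A9, 59.9 in the AGM-s3-A7 line and 58.6 in OP9. Col4a3, Col4a4 and Col4a6, known from the specialised basement membranes of organs such as the kidney, were not detected in any line. The median log2 ratio of the 3 measurable type IV genes was 1.91 for AGM-s3-A9 and 1.39 for OP9 against AGM-s3-A7, beside 0.01 and 0.04 over all measurable genes.

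Col4a1 and Col4a2 lie head to head on chromosome 8, whose genes had median log2 ratios against AGM-s3-A7 of -0.20 in AGM-s3-A9 and 0.00 in OP9. In RefSeq (GRCm38.p6) the annotated first base of Col4a1, on the minus strand, is 11312826 and that of Col4a2, on the plus strand, is 11312805. The stretch of 30 bases around them, read on the plus strand, is shown because both chains were lowest in AGM-s3-A7. The 22 bases from one start to the other are in capitals and lie inside both annotated transcripts.
Col4a1 and Col4a2, chr8:11312801-11312830: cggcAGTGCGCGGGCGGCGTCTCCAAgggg
The other neighbouring pairs on the arrays were Col3a1 with Col5a2, Col4a4 with Col4a3 and Col9a1 with Col19a1 on chromosome 1, Col6a2 with Col6a1 on chromosome 10 and Col4a6 with Col4a5 on chromosome X. Both members were detected only for Col3a1 with Col5a2 and Col6a2 with Col6a1. Col3a1 was 5.97-fold lower in OP9 than in the non-supportive line and Col5a2 was 1.5-fold lower.

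The multiplexins, types XV and XVIII, carry long interrupted helices and yield the anti-angiogenic fragments restin and endostatin. Col15a1 was at 207 in AGM-s3-A9, 10.01 in the AGM-s3-A7 line and 101 in OP9, so it was detected in the supportive lines alone. Relative to the non-supportive line, the supportive AGM line was at least 4.22-fold higher and OP9 at least 2.06-fold. The OP9 value rested close to the 2-fold line. It had a log2 ratio of 1.04, which became 0.87 in the intensities as deposited, 0.93 after subtraction of the median of chromosome 4 and 0.04 with a doubled detection level. Col15a1 was also 2.05-fold higher in AGM-s3-A9 than in OP9. The gene had 1 probe set.

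Col18a1 was at 373 in AGM-s3-A9, 202 in the AGM-s3-A7 line and 173 in OP9 on its brightest probe set, or 1.84-fold higher in AGM-s3-A9 than in the non-supportive line and 2.16-fold higher than in OP9. Of its 5 probe sets, 4 were detected. These had AGM-s3-A9 as the highest line and disagreed on the size. Another of its MG-U74A probe sets, with a suffix that marks probes shared between transcripts, read 184 in AGM-s3-A9, 11.5 in the AGM-s3-A7 line and 40.9 in OP9, which put AGM-s3-A9 at least 3.75-fold above either. A further one read 159, 45.2 and 54.4, at least 3.24-fold higher than in the non-supportive line. The weakest detected one read 67.6, 30.1 and 29.9. With the median over its probe sets the log2 ratio of Col18a1 between the AGM lines became 1.80, past 2-fold, against 0.88 on the brightest, and it was 1.62 in the intensities as deposited. RefSeq lists more than 1 start for this gene, and which transcript each probe set reads was not determined.

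Of the fibrillar genes, none reached 2-fold between the AGM lines, and Col3a1, Col5a1 and Col11a1 were at least 2-fold lower in OP9 than in the non-supportive line. Between AGM-s3-A9 and AGM-s3-A7, 0 of 7 measurable fibrillar genes reached 2-fold (beside 3.08% of all genes higher and 2.28% lower), and their median log2 ratio was -0.10, beside 0.01 over all genes. This median had no stable sign, with 0.12 in the intensities as deposited and -0.51 with scaling to the 75th percentile. Against AGM-s3-A7, OP9 had 3 of 8 measurable fibrillar genes lower by 2-fold or more (beside 5.98% of all genes), 0 higher (beside 5.14%) and 5 within 2-fold. Their median was -0.76, beside 0.04 over all genes, and it stayed between -0.94 and -0.76 under the alternatives. Of the 8 genes, 7 lay below 0, and Col27a1 was detected in OP9 alone. On the brightest probe set, Col1a2, Col5a1, Col5a2 and Col11a1 were highest in AGM-s3-A7 of the 3 lines.

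Col3a1, whose type III product forms fine fibers in vessel walls and hematopoietic organs, gave the widest fibrillar difference. It was at 3597 in AGM-s3-A9, 3281 in the AGM-s3-A7 line and 550 in OP9 on the brightest probe set, 5.97-fold lower in OP9 than in the non-supportive line. The other Col3a1 probe sets on MG-U74A read 979, 1027 and 44.9, at least 21-fold lower in OP9, and 332, 487 and 75.3, or 6.46-fold lower. OP9 was thus the low line on every Col3a1 probe set, and the AGM lines were within 1.47-fold of each other on each.

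Type I collagen, the main fiber former of bone, tendon and skin, is built from the products of Col1a1 and Col1a2. Col1a1 was at 6684 in AGM-s3-A9, 6174 in the AGM-s3-A7 line and 3539 in OP9 on the brightest probe set, 1.74-fold lower in OP9 than in the non-supportive line. A second Col1a1 probe set read 3993.5, 4746 and 692 in the same order, or 6.86-fold lower. Both placed OP9 lowest, but the size was not settled. Col1a2 was at 5000.5 in AGM-s3-A9, 5555 in the AGM-s3-A7 line and 3379 in OP9, or 1.64-fold lower in OP9. Its second probe set, with a suffix that marks a reduced probe selection, read 325, 283 and 311.5 and placed OP9 between the AGM lines. Col1a2 lies on chromosome 6, whose genes had a median log2 ratio of 0.37 for OP9 against AGM-s3-A7. After subtraction of that median, Col1a2 had a log2 ratio of -1.09 in place of -0.72.

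Types V and XI regulate the diameter of the fibers they enter. Col5a1 was at 1331 in AGM-s3-A9, 1426 in the AGM-s3-A7 line and 664 in OP9 on its brightest probe set, which is on MG-U74C and carries a cross-hybridisation suffix, or 2.15-fold lower in OP9 than in the non-supportive line. On MG-U74A it was 917, 1137 and 626 on one probe set and 663, 398 and 460 on another, so the difference did not reach 2-fold there and the second had AGM-s3-A7 lowest. Without suffixed probe sets the log2 ratio of Col5a1 for OP9 against AGM-s3-A7 was -0.86 in place of -1.10. Col5a2 was at 2336 in AGM-s3-A9, 3101 in the AGM-s3-A7 line and 2069 in OP9, highest in AGM-s3-A7. Its MG-U74B probe set, at 94.1, 158 and 95.2, also had AGM-s3-A7 highest.

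Col5a3, a less widespread type V chain, was at 112 in AGM-s3-A9, 80.2 in the AGM-s3-A7 line and 45.5 in OP9, so OP9 was at least 2.12-fold lower than AGM-s3-A9. That log2 ratio of 1.09 was 0.69 in the intensities as deposited and 0.09 with a doubled detection level, both short of 2-fold. Col11a1, best known from cartilage, was at 506 in AGM-s3-A9, 919 in the AGM-s3-A7 line and 457.5 in OP9. AGM-s3-A7 was the high line, by 1.81-fold over AGM-s3-A9 and 2.01-fold over OP9, the latter just inside 2-fold and at a log2 ratio of -0.97 in the intensities as deposited. Col27a1 was close to the detection level in OP9, at 54.3, and below it in both AGM lines. Col2a1, the main cartilage chain, and Col11a2 were not detected.

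From the RefSeq table (GRCm38.p6), 4 promoters are shown as examples. They are those of Col3a1, Col1a2, Col15a1 and Col8a1. Col3a1 was the fibrillar gene with the widest OP9 difference. Col1a2, a type I chain, was within 2-fold before subtraction of the chromosome median. Col15a1 and Col8a1 were both higher in OP9 than in the non-supportive line. Each run covers the 250 bases before the annotated start, 5′ to 3′ on the strand of the gene. Capitals mark the TATA box TATAAA, the CCAAT box and the GC box GGGCGG on either strand.
Col3a1, chr1:45311288-45311537, plus strand: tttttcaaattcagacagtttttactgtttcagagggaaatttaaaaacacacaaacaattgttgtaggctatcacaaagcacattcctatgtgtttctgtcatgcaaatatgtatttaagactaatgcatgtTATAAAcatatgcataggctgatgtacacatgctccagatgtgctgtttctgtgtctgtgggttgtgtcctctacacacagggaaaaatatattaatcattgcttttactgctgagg
Col1a2, chr6:4505368-4505617, plus strand: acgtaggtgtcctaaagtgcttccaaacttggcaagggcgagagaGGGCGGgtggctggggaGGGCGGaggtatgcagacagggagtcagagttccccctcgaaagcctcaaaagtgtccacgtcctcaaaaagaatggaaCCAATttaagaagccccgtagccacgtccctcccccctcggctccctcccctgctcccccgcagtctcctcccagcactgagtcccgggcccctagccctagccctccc
Col15a1, chr4:47207762-47208011, plus strand: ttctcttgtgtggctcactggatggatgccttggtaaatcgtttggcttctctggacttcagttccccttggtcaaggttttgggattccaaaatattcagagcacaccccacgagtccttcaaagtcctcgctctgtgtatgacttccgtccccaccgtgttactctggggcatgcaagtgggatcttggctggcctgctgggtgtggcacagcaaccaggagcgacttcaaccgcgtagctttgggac
Col8a1, chr16:57754738-57754987, minus strand: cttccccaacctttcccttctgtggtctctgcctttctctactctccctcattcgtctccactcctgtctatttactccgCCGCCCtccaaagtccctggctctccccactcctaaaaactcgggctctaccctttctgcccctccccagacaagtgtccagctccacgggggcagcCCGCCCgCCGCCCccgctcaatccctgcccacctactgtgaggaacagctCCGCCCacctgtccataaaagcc
Col3a1 had a TATAAA, Col1a2 a CCAAT and 2 GGGCGG, Col8a1 4 GGGCGG, and Col15a1 none of the 3 motifs. The table held 34 promoters for 31 of the 40 genes. TATAAA was in 5 of these 34 against 12.4% of all 32851 promoters in the table, CCAAT in 13 against 33.8% and GGGCGG in 21 against 32.7%. A match is a stretch of letters and not a binding site.

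**Figure D2:**
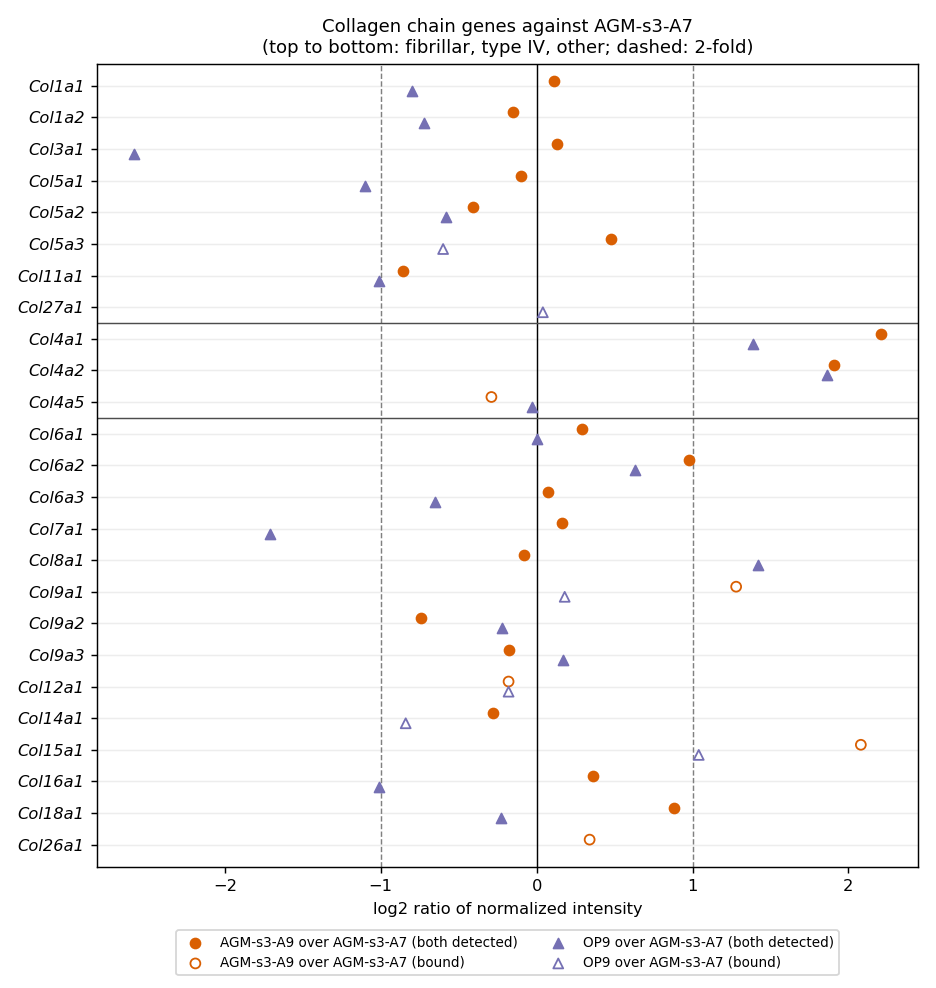
Log2 ratio of normalized intensity against AGM-s3-A7 for the 25 detected collagen genes, for AGM-s3-A9 (circles) and OP9 (triangles), with 1 array per line. Open symbols are bounds against a line at or below the detection level, and dashed lines mark 2-fold. Col4a1 and Col4a2 lie to the right of 2-fold for both lines, and 7 of 8 fibrillar genes lie left of 0 for OP9.

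Type VI collagen, a beaded filament that links basement membranes to the surrounding matrix, needs the alpha 1, alpha 2 and alpha 3 chains together. Col6a1 was at 3370.2 in AGM-s3-A9, 2754 in the AGM-s3-A7 line and 2754 in OP9. Col6a2 was at 3003 in AGM-s3-A9, 1521.5 in the AGM-s3-A7 line and 2357 in OP9, and was 1.97-fold higher in AGM-s3-A9 than in the non-supportive line. Col6a3 was at 2415 in AGM-s3-A9, 2304 in the AGM-s3-A7 line and 1465 in OP9. No type VI gene reached 2-fold in any comparison, although Col6a2 passed it in the intensities as deposited, with a log2 ratio of 1.44 between the AGM lines, and Col6a3 passed it there with 1.30 between the supportive lines. The chains gave different ratios on their brightest probe sets. For OP9 against AGM-s3-A7 the log2 ratios were 0.00 for Col6a1, 0.63 for Col6a2 and -0.65 for Col6a3. The second Col6a3 probe set, on MG-U74C, gave -0.13 and the second Col6a1 probe set 0.20, so a difference between the chains was not settled. Col6a4 and Col6a6 were not detected.

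Col7a1, the chain of the anchoring fibrils that fasten the epidermal basement membrane, was at 229 in AGM-s3-A9, 206 in the AGM-s3-A7 line and 62.9 in OP9. The AGM lines were within 1.11-fold of each other, and OP9 was 3.27-fold lower than AGM-s3-A7 and 3.65-fold lower than AGM-s3-A9. Col8a1, a short-chain collagen of vessel walls and of the membrane beneath the corneal endothelium, ran the other way. It was at 606 in AGM-s3-A9, 641 in the AGM-s3-A7 line and 1717 in OP9, or 2.68-fold and 2.83-fold higher in OP9 than in the non-supportive line and AGM-s3-A9. The difference from AGM-s3-A9 fell short of 2-fold in the intensities as deposited, with a log2 ratio of -0.83. Col7a1 and Col8a1 each had 1 probe set. Col8a2 and Col10a1, the other short chains, were not detected.

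The fibril-associated collagens with interrupted helices (FACIT) decorate the surface of fibers. Col16a1 was at 312 in AGM-s3-A9, 243 in the AGM-s3-A7 line and 121 in OP9, or 2.01-fold lower in OP9 than in the non-supportive line and 2.59-fold lower than in AGM-s3-A9. In the intensities as deposited the log2 ratio of Col16a1 for OP9 against AGM-s3-A7 was -0.79 and that between the supportive lines was 0.80, both short of 2-fold. Col9a1, known from cartilage fibers, was at 119 in AGM-s3-A9, 24.7 in the AGM-s3-A7 line and 55.6 in OP9, which put AGM-s3-A9 at least 2.44-fold above the non-supportive line and 2.15-fold above OP9. A second Col9a1 probe set, on MG-U74B, was not detected in any line, at 1.69, 0.363 and 4.93 in the same order. Neither difference of Col9a1 reached 2-fold with a doubled detection level, where both had a log2 ratio of 0.28. Its partner Col9a2 had the reverse order, at 69.6 in AGM-s3-A9, 116 in the AGM-s3-A7 line and 99.9 in OP9. Col9a3 lay between 58.9 and 75.2 in the 3 lines.

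Col14a1 was detected in both AGM lines and not in OP9 on each of 3 array types. On MG-U74A it read 72.2 in AGM-s3-A9, 87.7 in the AGM-s3-A7 line and 13.7 in OP9, on MG-U74B 89.0, 66.2 and 2.79, and on MG-U74C 78.9, 62.0 and 5.79. Since the AGM values lay close to the detection levels, the bounds were small, at most 1.79-fold against AGM-s3-A7 and 1.69-fold against AGM-s3-A9. Col14a1 lies on chromosome 15, whose genes had a median log2 ratio of -0.49 for OP9 against AGM-s3-A7. After subtraction of that median, the bound on the log2 ratio of Col14a1 for OP9 against AGM-s3-A7 went from -0.84 to -0.35. Between the AGM lines its log2 ratio of -0.28 turned to 0.42 in the intensities as deposited and to 0.23 with the median over probe sets. Col12a1 reached 55.6 in AGM-s3-A7 alone. Col19a1 and Col22a1 were not detected.

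Of the remaining chains, Col26a1 was detected in AGM-s3-A9 alone, at 62.0. The transmembrane collagen genes Col13a1, Col17a1, Col23a1 and Col25a1 were not detected, with no probe set of theirs above 12.4 in any line. In all, 15 of the 40 genes had no value above the detection level. Col6a4 came closest on MG-U74C, at 50.7 in OP9. A probe set at background does not show that a transcript is absent, since Vim, the vimentin gene of mesenchymal cells, also read no more than 22.9 in each line.

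**Figure D3:**
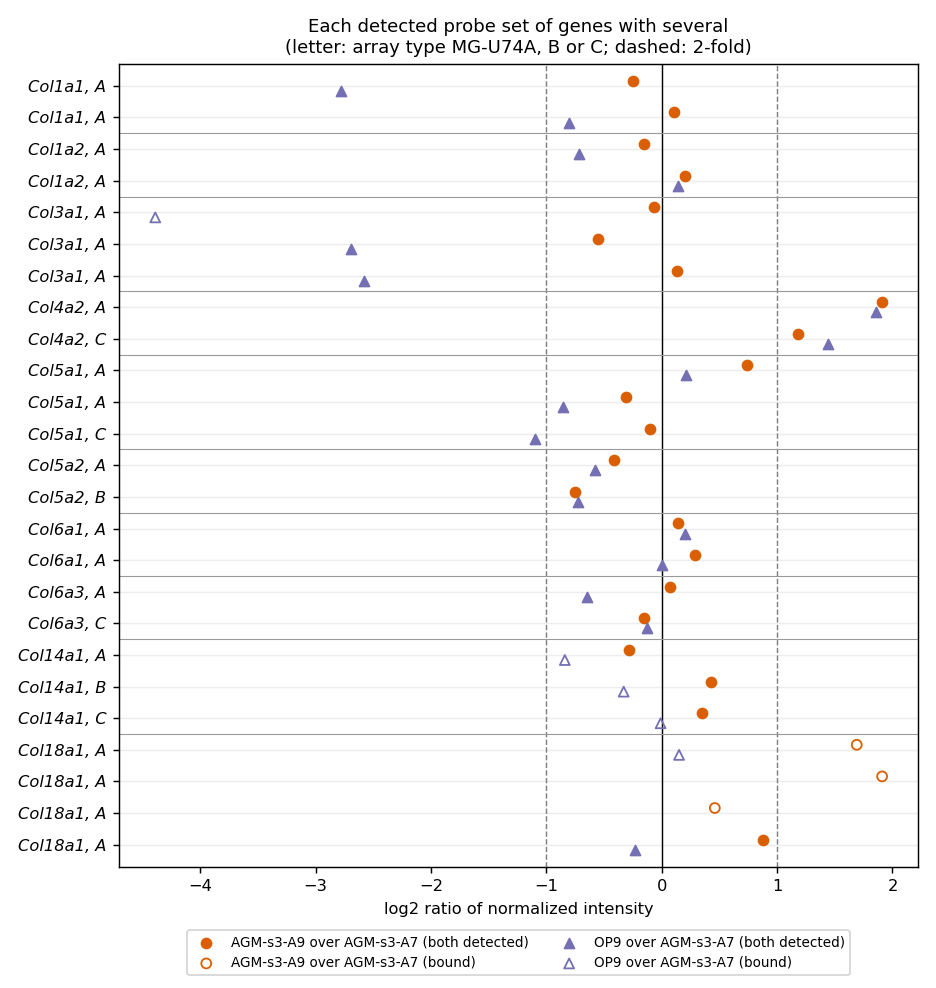
Log2 ratio against AGM-s3-A7 for each detected probe set of the collagen genes that have several, for AGM-s3-A9 (circles) and OP9 (triangles). The letter after the gene is the array type, open symbols are bounds, and dashed lines mark 2-fold. Every Col3a1 probe set lies left of 2-fold for OP9 and both Col4a2 probe sets lie right of it for both lines, while those of Col1a1 and Col5a1 fall on both sides of 2-fold for OP9.

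Several probe sets could be compared for 10 genes. They fell on the same side of 2-fold for 9 of the 10 in AGM-s3-A9 against AGM-s3-A7, all but Col18a1. For OP9 against AGM-s3-A7 this held for 8, all but Col1a1 and Col5a1, and between the supportive lines for 7, all but Col1a1, Col5a1 and Col18a1. The sign of the ratio agreed among all probe sets of a gene in 4, 6 and 6 of the 10. Some splits lay near 0, such as log2 ratios of 0.11 and -0.25 for Col1a1 between the AGM lines. Others did not. For OP9 against AGM-s3-A7, Col5a1 had 0.21, -0.86 and -1.10, and Col1a2 had -0.72 and 0.14.

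The supportive lines differed from each other in chains of several classes. In AGM-s3-A9, 8 of 24 measurable genes were at least 2-fold higher than in OP9 (33.3%, beside 6.57% of all measurable genes) and 1 was lower, Col8a1 (4.17%, beside 5.06%). The 8 were Col3a1, Col5a1, Col5a3, Col7a1, Col9a1, Col15a1, Col16a1 and Col18a1. Col3a1 led, 6.55-fold higher in AGM-s3-A9. Col3a1 and Col7a1 kept their calls under all 9 alternatives, and each of the other 7 calls was lost under at least 1. The Col5a1 difference, 2.01-fold, was lost under 4 of 9. In the intensities as deposited the log2 ratio was 0.69 for Col5a3, 0.80 for Col16a1 and -0.83 for Col8a1. With a doubled detection level it was 0.09 for Col5a3 and 0.28 for Col9a1. After subtraction of chromosome medians it was 0.98 for Col15a1 and 0.99 for Col18a1. The fibrillar median log2 ratio was 0.74, and it was 0.38 with scaling to the 75th percentile. The type IV median was 0.05. Over all measurable genes the median was -0.02.

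Collagen chains pass through hydroxylation, folding, export, trimming and crosslinking before they form matrix, and genes of these steps were read from a list of 38, of which 30 were on the arrays and 25 were detected in at least 1 line. In AGM-s3-A9 against AGM-s3-A7, 2 of 25 were at least 2-fold higher (beside 3.08% of all genes) and 0 lower (beside 2.28%), with a median log2 ratio of 0.27. In OP9 against AGM-s3-A7, 1 of 25 was higher (beside 5.14%) and 3 were lower (beside 5.98%), with a median of -0.47. In AGM-s3-A9 against OP9, 9 of 25 were higher (beside 6.57%) and 0 lower (beside 5.06%), with a median of 0.76. In the intensities as deposited, more of the 25 passed 2-fold towards AGM-s3-A9 in the first comparison, with a median of 0.82. The median over all measurable genes was 0.24 there, but it pools the array types. On MG-U74A the median deposited intensity was 64.5 in AGM-s3-A9 and 42.7 in AGM-s3-A7, and on MG-U74B it was 21.6 and 26.5. The 0.24 is thus not a matched background for the list.

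Lysyl hydroxylases prepare collagen for crosslinking and glycosylation. Plod2, whose enzyme acts on the telopeptides, was at 1076 in AGM-s3-A9, 429 in the AGM-s3-A7 line and 1096 in OP9, with AGM-s3-A7 the low line by 2.51-fold and 2.55-fold, as for Col4a2. Its AGM-s3-A9 value did not reach 2-fold in the intensities as deposited. Plod3, whose product also glycosylates hydroxylysine, was at 532 in AGM-s3-A9, 247 in the AGM-s3-A7 line and 313 in OP9, 2.15-fold higher in AGM-s3-A9 than in the non-supportive line. Plod1 was at 395 in AGM-s3-A9, 221 in the AGM-s3-A7 line and 91.4 in OP9, or 2.42-fold lower in OP9 than in the non-supportive line. The 3 lysyl hydroxylase genes thus had different orders of lines.

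The prolyl 4-hydroxylase gene P4ha1, needed for a stable triple helix, was at 543 in AGM-s3-A9, 380 in the AGM-s3-A7 line and 138 in OP9. It was 2.75-fold lower in OP9 than in the non-supportive line and 3.93-fold lower than in AGM-s3-A9. P4ha2 read 813, 538 and 298 in the same order, 2.73-fold lower in OP9 than in AGM-s3-A9. Bmp1, the proteinase that trims the carboxyl ends of fibrillar procollagens, was at 759 in AGM-s3-A9, 462 in the AGM-s3-A7 line and 121 in OP9, 3.81-fold lower in OP9 than in the non-supportive line and 6.27-fold lower than in AGM-s3-A9. Sec24d, a coat protein for export from the endoplasmic reticulum, was 2.83-fold higher in AGM-s3-A9 than in OP9. That difference did not reach 2-fold in the intensities as deposited. Creb3l1, a transcription factor known to act on collagen genes in bone, was 2.51-fold higher in AGM-s3-A9 than in OP9. OP9 was the lowest line for P4ha1, P4ha2, Plod1 and Bmp1, as it was for Col1a1 and Col3a1. Serpinh1, the collagen chaperone, lay between 2757 and 3229 in the 3 lines.

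**Figure D4:**
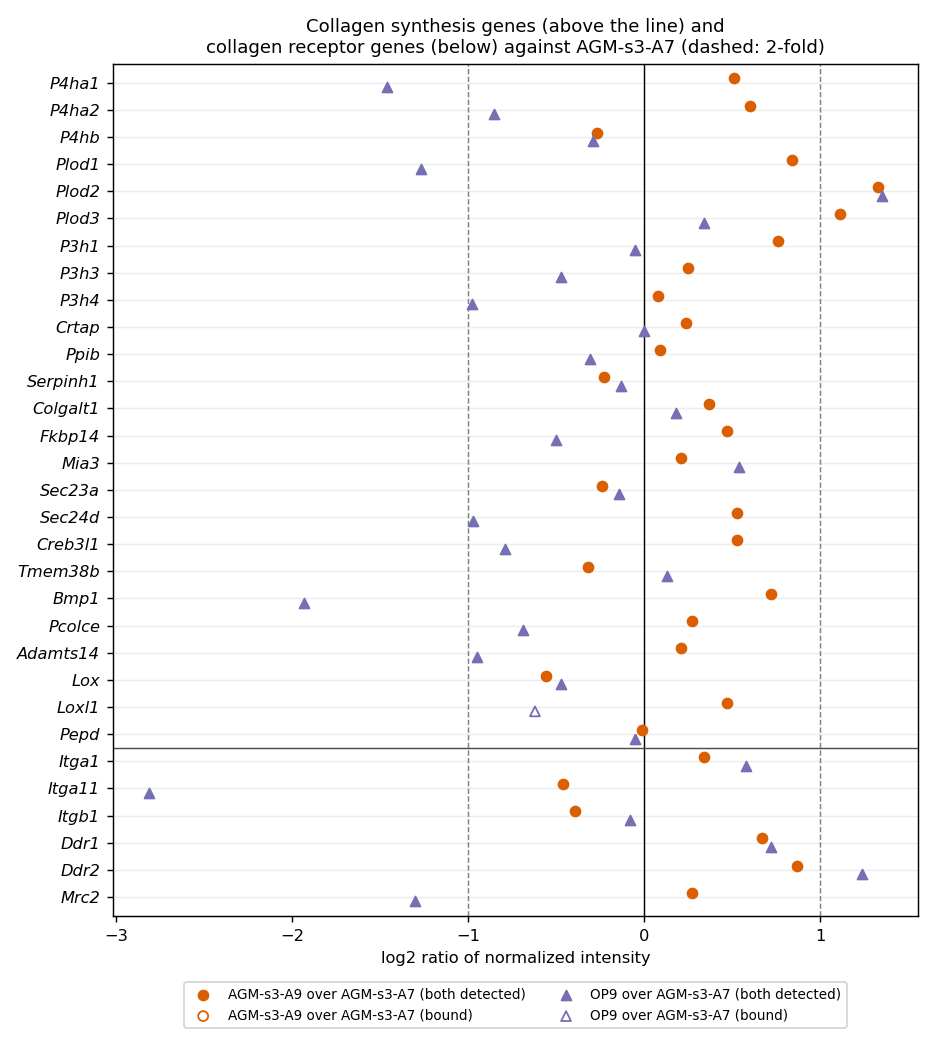
Log2 ratio against AGM-s3-A7 for the detected collagen synthesis genes (25, above the line) and collagen receptor genes (6, below it), for AGM-s3-A9 (circles) and OP9 (triangles), with 1 array per line. Open symbols are bounds and dashed lines mark 2-fold. Plod2 lies right of 2-fold for both lines, and Bmp1, P4ha1, Plod1, Itga11 and Mrc2 lie left of it for OP9.

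Collagen receptors were read from a list of 10, of which 9 were on the arrays and 6 were detected. Itga11, the alpha 11 integrin subunit that binds fibrillar collagen, was at 355 in AGM-s3-A9, 489 in the AGM-s3-A7 line and 69.8 in OP9, or 7.0-fold lower in OP9 than in the non-supportive line. Mrc2, an endocytic receptor that takes up collagen fragments, was at 813 in AGM-s3-A9, 673 in the AGM-s3-A7 line and 274 in OP9, 2.46-fold lower in OP9 than in the non-supportive line. Ddr2, a receptor tyrosine kinase for fibrillar collagen, was at 1035 in AGM-s3-A9, 567 in the AGM-s3-A7 line and 1337 in OP9, 2.36-fold higher in OP9. Between the AGM lines 0 of 6 reached 2-fold (beside 3.08% higher and 2.28% lower over all genes), whereas in the intensities as deposited Ddr1 and Ddr2 passed 2-fold towards AGM-s3-A9. In OP9 against AGM-s3-A7, 1 of 6 was higher (beside 5.14%) and 2 were lower (beside 5.98%). The median log2 ratio of the list was 0.25 for OP9 against AGM-s3-A7, -0.15 between the supportive lines and 0.31 between the AGM lines. In the intensities as deposited these became -0.12, 0.44 and 0.03, so the first and second changed sign.

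Markers of cell types were read beside these results. Of 7 stromal markers, 5 were detected, with Pdgfra between 1187 and 1720.1 and Pdgfrb between 306 and 414. Thy1 was at 416 in AGM-s3-A9, 206 in the AGM-s3-A7 line and 4.61 in OP9, below the detection level there. Of the hematopoietic and endothelial markers on the arrays, 0 of 4 and 0 of 5 were detected, with summed levels of 23.3 to 33.8 and 24.97 to 49.6. Epcam and Cdh1, 2 of 4 epithelial markers, read between 84.5 and 126 without a 2-fold difference. Markers of stromal differentiation also differed in OP9. Between the AGM lines, Sox9 and the stromal marker Thy1 were 2.07-fold and 2.02-fold higher in AGM-s3-A9. Of the other detected stromal markers, Eng and Pdgfra were 1.99-fold and 1.45-fold lower in AGM-s3-A9, and Pdgfrb and Cd44 were 1.10-fold and 1.31-fold higher. The sums below add probe sets, some from different array types, and follow the brightest of them. The 4 smooth muscle markers summed to 5231 in AGM-s3-A9, 5274 in the AGM-s3-A7 line and 1136 in OP9. Of these, 3 were lower in OP9 than in the non-supportive line by 2-fold or more (beside 5.98% of all genes). The 3 adipocyte markers summed to 152, 97.6 and 632, and all 3 were at least 2-fold higher in OP9 than in the non-supportive line (beside 5.14% of all genes). Adipoq and Fabp4 were detected in OP9 alone, so they enter through the line in which they are high and their folds are lower bounds. The 4 chondrocyte markers summed to 239, 127 and 766, of which Sox9 gave 229.7, 111 and 577 and Comp, detected in OP9 alone, 168 there. Both were at least 2-fold higher in OP9 than in the non-supportive line (beside 5.14% of all genes), and Acan and Matn1 were not detected. Their part in the collagen differences was not tested. In a bulk sample, fewer cells of one kind and less RNA per cell cannot be told apart.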

How the data were processed

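Total RNA of each line was labelled from 6 ug by the standard Affymetrix procedure, per the labels' protocols. Each array was deposited by the authors as 1 linear intensity for every probe set. The scanner software and the background, summarisation and scaling steps were not given in the sources used here. Median deposited intensities ranged from 42.7 to 64.5 on MG-U74A, 21.6 to 32.6 on MG-U74B and 8.49 to 12.1 on MG-U74C.

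Log2 intensities were quantile normalized within each array type (Python 3.11.15, numpy 2.4.6, pandas 2.3.3), which removes any general shift between lines. The detection level was the higher of the median of the array type and the 95th percentile of 34 negative control probe sets. Values at or below it were raised to it before ratios were formed. A gene was measurable in a pair when detected in at least 1 of the lines, and calls were made at a fold of 2, with no test. Background shares cover all genes by the same rule. Gene symbols came from the platform annotation, and 99.5% of the symbols had a gene identifier in the RefSeq table (GRCm38.p6), used for chromosomes and neighbours.

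The alternatives were other scaling, other detection levels, other probe sets and another class boundary. The procedure was tested on simulated data. Every collagen gene detected in a line was named, and of the synthesis and receptor lists up to 8 genes at least 2-fold apart per pair, with Serpinh1 added after its values were seen. Members and lists were chosen with earlier results of these data known.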

Additional observations from a re-analysis of the deposited data

How the results depend on the processing

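Of 22 collagen gene calls at 2-fold over the 3 comparisons, 10 held under each of 9 alternatives. Of 622 alternative values of single genes, 75 moved by at least the robust SD between probe sets of that comparison. No called gene changed sign, and genes within 2-fold could not enter that count. Of 138 alternative values of counts and class medians, 13 moved. Counts were judged by their ratio to the main count, and shares over all genes were not computed under the alternatives. A changed count thus cannot be told apart from a change in the general share. Medians were judged by the same SD between probe sets, which is not the error of a median. In the intensities as deposited, the AGM lines had medians of 2.59 for type IV and 0.66 for other types. There OP9 had 3 genes lower than AGM-s3-A7, and AGM-s3-A9 against OP9 had 0 genes lower and a type IV median of 0.68. The median over all genes, pooled over the array types, was then 0.24, 0.09 and 0.19 in the 3 comparisons. Scaling to the 75th percentile gave fibrillar medians of -0.51 between the AGM lines and 0.38 between the supportive lines. With the median over probe sets, the type IV median between the AGM lines was 1.55. Types IV, VII, XV and XVIII together as basement membrane gave medians of 1.40, 0.51 and 0.93 between the AGM lines, OP9 and AGM-s3-A7, and the supportive lines. For AGM-s3-A9 against OP9, the median of the array type as detection level gave 3 genes lower, and a doubled detection level gave a type IV median of 0.43. The intensities as deposited keep the differences between array medians given above. Beyond that and the changed members of the class, causes were not tested. The filter on the mean over lines and the subtraction of chromosome medians were chosen after seeing the data. No paired analysis was possible because each line had 1 array per array type. Genes near the detection level have bounds only.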
